A study of Drosophila melanogaster with 3 samples.

Results

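MESK2 (FBgn0043070) was represented by 10 of the 5272 isoforms in the Iso-seq assembly of w1118 fly heads, and no gene had more. Of 4059 genes in the file, 14.8% had 2 or more isoforms. The MESK2 members are all exon lines that carry this gene identifier, 67 of 25067 in the file, so that the gene was chosen with its isoform number known and that number is a description only. Iso-seq is a PacBio method in which a consensus read spans a cDNA from end to end. RNA came from heads of 3-day-old, untreated adult flies of the strain w1118, reared at 25 °C. The 3 libraries form 1 group and were pooled before assembly, so the file gives the exon coordinates of each isoform on dm6 and no abundance, no depth and no spread between replicates. There is no treated or mutant group, and the numbers below count transcript structures, each backed by at least 2 full-length reads.

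MESK2 stands for misexpression suppressor of KSR 2. KSR (kinase suppressor of ras) is a scaffold that brings together the kinases Raf, MEK and ERK of the Ras pathway, which in the fly eye directs photoreceptor fate. The MESK2 protein belongs to the NDRG family, named after a mammalian gene regulated by N-myc, whose members share an alpha/beta hydrolase fold. A gene can vary its protein by the choice of transcription start site (TSS), by alternative splicing of internal exons, and by alternative polyadenylation (APA), in which a different polyadenylation site (PAS) is used. Where an APA site lies in a separate last exon, the choice changes the carboxy terminus as well as the 3′ UTR. MESK2 lies on the plus strand of chromosome 2R, from 21502097 to 21517241, a span of 15145 nt with 9 annotated transcripts. No sequence is shown, since no genome or protein sequence was used here.

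All 10 MESK2 isoforms started at the same nucleotide, 21502098 on chromosome 2R, which is 1 nt from the annotated 5′ end. Only reads whose 5′ end matched a known promoter had been kept, and an identical 5′ end in every isoform was common in the file, as given below. The MESK2 isoforms differed in 2 places, namely in the exons that lie between the first exon and a constant core, and in the last exon. The first exon (21502098 to 21502479, 382 nt) was present in all 10 isoforms and is annotated as 5′ UTR. The core began with 3 exons found in all 10 isoforms, from 21510867 to 21511060 (194 nt), from 21511123 to 21511243 (121 nt) and from 21511404 to 21511968 (565 nt). The last core exon started at 21512093 and was spliced at 21512177 (85 nt) in 9 isoforms. Up to that donor the 4 core exons add up to 965 nt, and the introns between them, of 62, 160 and 124 nt, were removed in all 10 isoforms.

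**Figure D1:**
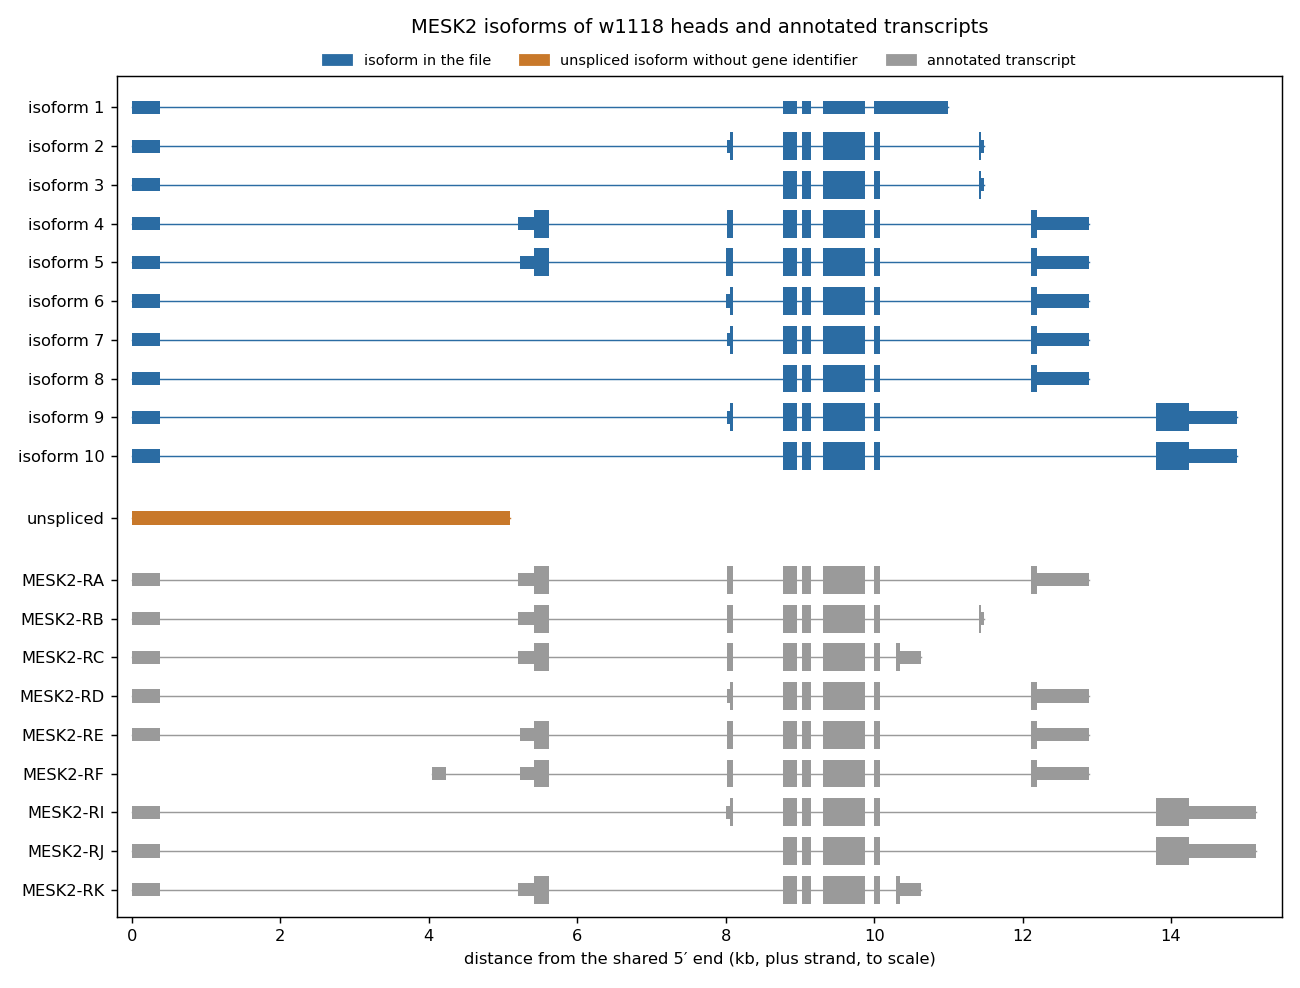
Exon maps of the 10 MESK2 isoforms (blue), an unspliced isoform without gene identifier that starts at the same nucleotide (orange) and the 9 annotated MESK2 transcripts (grey), with distance from the shared 5′ end in kb on the horizontal axis. Tall boxes are coding by annotated start and stop codons, low boxes are untranslated or, in isoform 1, not assigned, and lines are introns. The isoforms share the first exon and the core and differ in the exons between these and in the last exon.

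The variable exons upstream of the core carry annotated start codons, and a further annotated start codon lies at the beginning of the core. The distal upstream exon ended at 21507722 and was found in 2 isoforms, with its start at 21507295 (428 nt) in 1 and at 21507322 (401 nt) in the other. The proximal upstream exon ended at 21510201 and was found in 6 isoforms, with its start at 21510118 (84 nt) in 4 and at 21510106 (96 nt) in 2. In 4 isoforms neither was present, and the first exon was joined to the core across an intron of 8387 nt. Isoforms without both exons were therefore as many as those with the 84-nt form of the proximal exon. These are counts of structures and give no rate of skipping. Both isoforms with the distal exon also held the proximal exon. The annotated transcript MESK2-RK joins the distal exon directly to the core, and this junction was not found.

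The shortest of the first introns of MESK2 measured 4815 nt, and 12.5% of the 4262 different first introns in the file were at least that long. The median first intron in the file was 400.5 nt. The remaining MESK2 first introns measured 4842, 7626, 7638 and 8387 nt, so that the first donor was joined to 5 acceptors.

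At the other end, the last core exon was followed by 3 different last exons, and in 1 isoform it was not spliced at all. The last exon from 21514209 to 21514994 (786 nt) was found in 5 isoforms. The last exon from 21515888 to 21516986 (1099 nt) was found in 2 isoforms, as was the short last exon from 21513517 to 21513582 (66 nt). In the remaining isoform the last core exon ran 911 nt past its donor and ended at 21513088, within the intron. Each spliced last exon had the same 3′ end in all isoforms that used it. The 4 PASs lay 494, 1412 and 1992 nt apart, and the first and the last were separated by 3898 nt. These PASs are 3′ ends of assembled isoforms, and neither poly(A) signals nor the A content near them was examined. The paper names internal priming as a source of misplaced 3′ ends in most sequencing approaches, and it was not tested for here. With 1 TSS, MESK2 had 4 TSS-PAS combinations, and its alternative 3′ ends cannot be related to a choice of TSS in these data.

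The 66-nt last exon is short for the file. Only 41 of 4258 different last exons, or 0.963%, were of this length or less, and the median last exon measured 667.5 nt. This exon is annotated with the same ends in MESK2-RB.

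The upstream forms and the last exons were combined in 10 of 20 possible ways. The 786-nt last exon was found with all 5 upstream forms. The 66-nt and the 1099-nt last exon were each found with the same pair of upstream forms, the 84-nt proximal exon alone and neither exon. The distal exon and the 96-nt form of the proximal exon were found with the 786-nt last exon and with no other. The isoform that ended in the intron had neither upstream exon. Of the 45 pairs of isoforms, 12 differed in the upstream part alone, 9 in the last exon alone and 24 in both. Isoforms of a gene are not replicates, and with 10 isoforms and no abundance the pairing of upstream forms with last exons was not tested.

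**Figure D2:**
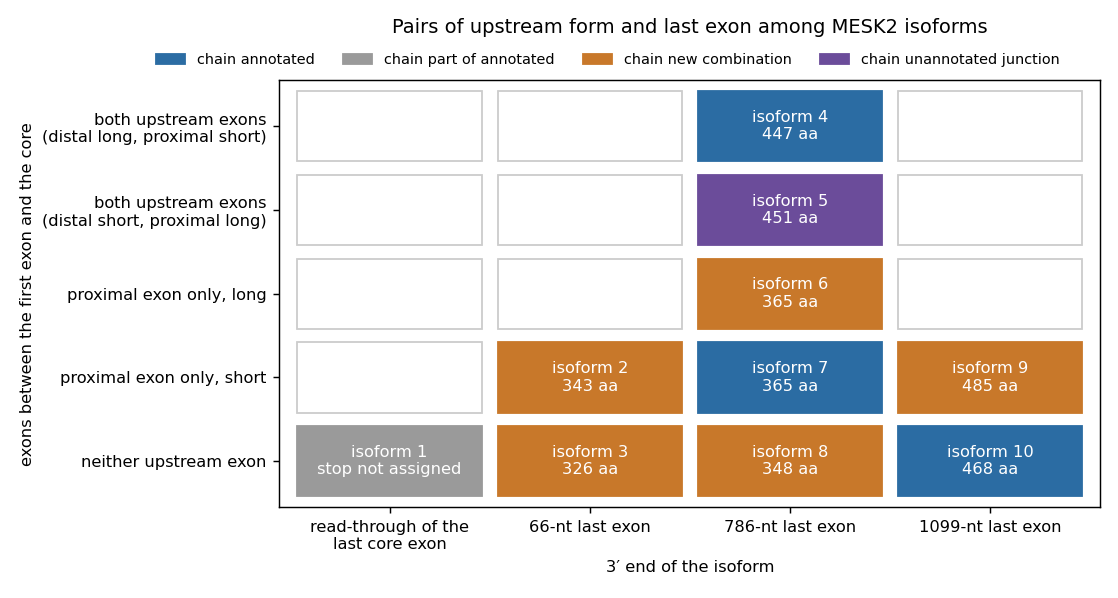
Grid of the 5 upstream forms (rows) and the 4 kinds of 3′ end (columns) of MESK2, with the isoform number and the predicted protein length in amino acids (aa) in each combination found and an empty box for each of the 10 not found. Colours give the relation of the splice chain to the annotation, and the column of the 786-nt last exon is the only full one.

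Isoforms are numbered here from the most proximal to the most distal 3′ end. Isoform 1 had 5 exons and 2258 nt and ended at 21513088. Isoforms 2 (7 exons, 1497 nt) and 3 (6 exons, 1413 nt) ended at 21513582 and were the shortest. Isoforms 4 and 5, with 8 exons each and 2645 and 2630 nt, were the longest and the only ones with the distal exon. Isoforms 6, 7 and 8, which also ended at 21514994, measured 2229, 2217 and 2133 nt. Isoforms 9 (7 exons, 2530 nt) and 10 (6 exons, 2446 nt) reached 21516986. The libraries had been size-selected for transcripts above 3 kb, yet all 10 MESK2 isoforms were shorter than that, as were 78.3% of all isoforms in the file. Their median was 2243.5 nt, against 1990.5 nt over all isoforms.

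Whether these structures alter the protein was asked with the annotated start and stop codons of MESK2. In each isoform the most 5′ annotated start codon was taken, which is the rule that all 9 annotated transcripts follow. The start codon at 21507514 lies in the distal exon and was used by 2 isoforms, the start codon at 21510155 lies in the proximal exon and was the first in 4, and the start codon at 21510871 lies at the beginning of the core and was the first in 4. In 9 of the 10 isoforms the spliced distance from start to stop was a multiple of 3. No sequence was used, so this does not show that the frame is free of other stop codons. The predicted proteins ranged from 326 to 485 amino acids.

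The choice of upstream exons changed the amino terminus. Among isoforms with the 786-nt last exon, the predicted protein had 348 residues without upstream exons (isoform 8), 365 with the proximal exon alone (isoforms 6 and 7) and 447 with both exons (isoform 4). The start codon in the proximal exon thus added 17 residues, and that in the distal exon another 82. The latter include residues encoded by the part of the proximal exon that lies before its own start codon. The start of the proximal exon at 21510106 in place of 21510118 made no difference to the predicted protein of isoform 6, since those 12 nt lie before its start codon. In isoform 5 the same 12 nt lie inside the reading frame that begins in the distal exon, and by length they add 4 codons, to 451 residues. Whether they hold a stop codon was not tested. The start of the distal exon, at 21507295 or 21507322, changed the 5′ UTR alone, by 27 nt.

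The choice of last exon changed the carboxy terminus. The coding part of the last exon, stop codon included, measured 20 nt in the 66-nt exon, 86 nt in the 786-nt exon and 446 nt in the 1099-nt exon. All 3 are entered in the same frame, as each length leaves a remainder of 2 on division by 3. For the same upstream form, the predicted protein gained 22 residues from the 66-nt to the 786-nt last exon and another 120 to the 1099-nt last exon. With the proximal exon the lengths were 343, 365 and 485 residues (isoforms 2, 7 and 9), and without upstream exons they were 326, 348 and 468 residues (isoforms 3, 8 and 10). The 3′ UTR measured 46 nt with the 66-nt exon, 700 nt with the 786-nt exon and 653 nt with the 1099-nt exon.

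**Figure D3:**
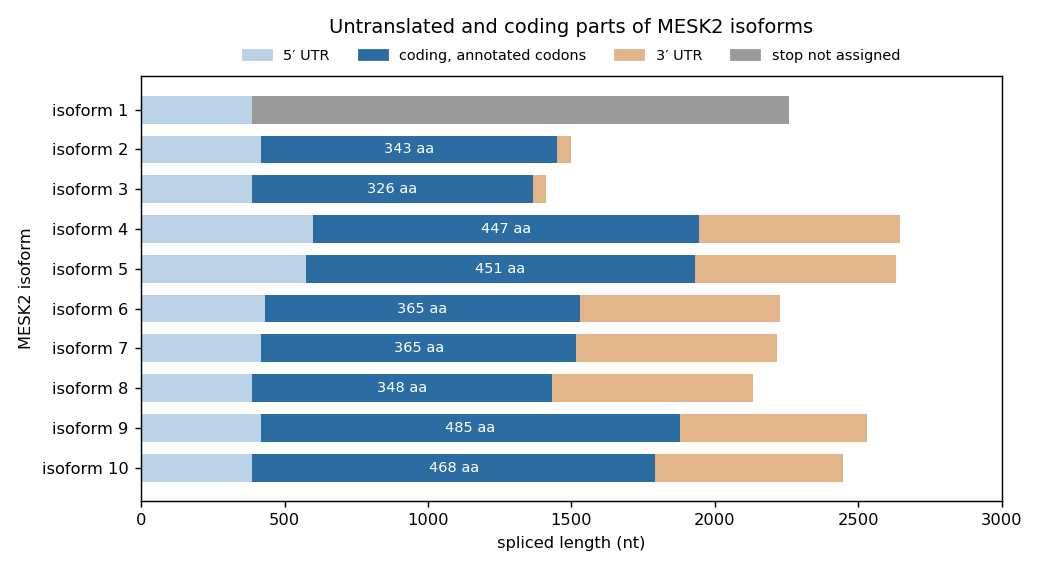
Spliced length in nt of the 10 MESK2 isoforms, divided into 5′ UTR, coding part by annotated codons with the number of amino acids (aa), and 3′ UTR. Isoforms 2 and 3, with a 3′ UTR of 46 nt, are the shortest, and isoforms 9 and 10, at 485 and 468 amino acids, have the longest coding parts. The part of isoform 1 after its start codon is grey because no stop codon was assigned.

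For isoform 1 no stop codon was assigned. It runs from the last core exon through 215 nt of intron into an annotated last exon, from 21512393 to 21512725, and 363 nt beyond the end of that exon. These 215 nt leave a remainder of 2 on division by 3, so the annotated stop codon of that exon, which ends at 21512448 and is reached by splicing in MESK2-RC and MESK2-RK, is not in the same frame when the intron is kept. The spliced form of this last exon was not found.

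Counted by coordinates, the 9 isoforms with annotated start and stop codons in frame have 8 different predicted coding sequences, and only isoforms 6 and 7 share theirs. Of these 8, 4 are annotated and 4 are not. Isoforms 4, 6, 7, 9 and 10 have annotated coding sequences, those of MESK2-RA, MESK2-RD, MESK2-RI and MESK2-RJ. Isoforms 2, 3, 5 and 8 do not. The splice chain of isoform 9 is unannotated while its coding sequence is that of MESK2-RI, in which the proximal exon starts 12 nt earlier, in the 5′ UTR. Of the 7 annotated coding sequences of MESK2, those of MESK2-RB, MESK2-RC and MESK2-RK, of 425, 437 and 409 residues, were not found. All 3 begin in the distal exon.

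Against the annotation, 3 of the 10 MESK2 splice chains were annotated, as MESK2-RA, MESK2-RD and MESK2-RJ (isoforms 4, 7 and 10). Over all isoforms in the file 71.4% were annotated. The shares over all isoforms given here also count 570 single-exon isoforms, which have no splice chain. Of the other genes with 8 or more isoforms, cpx had 2 of 8 chains annotated, up 3 of 8 and lola 4 of 8. Atpalpha had 4 of 10 and mod(mdg4) 7 of 9, so that the annotated share of MESK2 lay within the range of these genes. New combinations of annotated junctions made up 5 of the 10 (isoforms 2, 3, 6, 8 and 9), against 4.97% of all isoforms, most genes having a single isoform. Among the other genes with 8 or more isoforms they made up 5 of 8 in cpx, 4 of 8 in up, 2 of 8 in lola, 2 of 10 in Atpalpha and 0 of 9 in mod(mdg4), so that MESK2 lay within the range of these genes. The chain of isoform 1 is part of that of MESK2-RJ (11.6% of all isoforms were of this kind), and in isoform 5 a donor and an acceptor that are both annotated were joined in a way that is not (1.19%). This junction joins 21507722 to 21510106, the end of the distal exon to the 96-nt form of the proximal exon. The other 13 of the 14 MESK2 junctions are annotated. These shares are set side by side without a test, since MESK2 was chosen from the same isoforms.

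Of the 16 annotated junctions of MESK2, 3 were not found. They belong to MESK2-RF, MESK2-RK and, for the last exon at 21512393, MESK2-RC and MESK2-RK. MESK2-RF starts at 21506147, which is 4049 nt downstream of the TSS that all isoforms used, and no isoform started there. The chains of 6 of the 9 annotated transcripts were not found. These transcripts measure 1926 to 2798 nt, below the 3-kb size selection, as did all 10 isoforms found. Reads whose 5′ end matched no known promoter, and structures seen in fewer than 2 full-length reads, had been removed. The depth is not known either. These forms were therefore not detected under such conditions and are not shown to be absent from heads.

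All 10 5′ ends lay within 1 nt of an annotated end, as did 96.1% of those of 4702 multi-exon isoforms. An identical 5′ end in every isoform is common in the file: of 599 genes with 2 or more isoforms, 372 had a single 5′ position. Among the 71 genes with 4 or more isoforms, 31 had one. Of the 3′ ends, 7 lay within 1 nt of an annotated end (61.8% over all) and 3 lay over 150 nt from any (24.4% over all). The 3 are isoform 1, whose end lies 363 nt beyond the annotated end at 21512725, and isoforms 9 and 10, which ended 255 nt before the annotated end at 21517241. In the latter the stop codon is included and the 3′ UTR is shorter, 653 nt in place of 908 nt. Without these 3 isoforms MESK2 had 2 PASs in place of 4, with all 5 upstream forms still present.

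A further isoform lies in the locus under no gene identifier. It is unspliced, starts at the same nucleotide as the MESK2 isoforms, 21502098 on the plus strand, and ends at 21507198, with 5101 nt. It passes 4719 nt beyond the donor of the first exon, runs across the unused first exon of MESK2-RF and stops 96 nt before the distal upstream exon. It therefore holds none of the 3 annotated start codons of MESK2. Of 303 isoforms without a gene identifier none was longer, and among all 570 single-exon isoforms 1 was longer. The position is not unique to MESK2. Of the 301 single-exon isoforms without a gene identifier, 54 (17.9%) started at the 5′ end of a spliced gene isoform and ended in its first intron. Counted with MESK2, it would raise the number of isoforms to 11 and that of 3′ ends counted as PASs to 5. Its 3′ end was not checked for internal priming either.

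The genes around MESK2 had no isoform in the file, like most protein-coding genes, of which 28.8% had one. CG10494, on the minus strand from 21516774 to 21519125, overlaps the end of MESK2 by 468 nt in the annotation, and isoforms 9 and 10 overlap it by 213 nt in their 3′ UTR. TAF1C-like, on the minus strand, lies 364 nt to the left of MESK2, with its 5′ end towards MESK2. CG30288, also on the minus strand, lies 2001 nt to the right of MESK2.

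Next to the other genes with 8 or more isoforms, MESK2 combined a single TSS with several last exons. Atpalpha, which encodes the alpha subunit of the sodium-potassium pump, also had 10 isoforms, from 2 TSSs to 6 PASs with 3 last-exon starts. The chromatin protein gene mod(mdg4) had 9 isoforms with 2 TSSs and 9 last-exon starts, and lola, a locus of zinc-finger transcription factors, had 8 with 3 TSSs and 5 last-exon starts. The complexin gene cpx had 8 isoforms with 5 TSSs and 2 last-exon starts. The troponin T gene up, with 8 isoforms, shared the single TSS of MESK2 but had 1 PAS and 1 last exon, so that its isoforms differ internally. In all 6 genes each isoform had its own splice chain, as in 84.5% of the 71 genes with 4 or more isoforms.

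Of these 71 genes, 31 (43.7%) had 1 TSS, and 12 (16.9%) had 4 or more last-exon starts. MESK2, Syt1, GluClalpha, Fas2 and Gprk1, 5 genes in all, had both. Syt1 encodes the calcium sensor of synaptic vesicle release, GluClalpha a glutamate-gated chloride channel, Fas2 a neural adhesion molecule and Gprk1 a kinase of G-protein-coupled receptors. GluClalpha, Fas2 and Gprk1 were picked out with their values in view. The number of last-exon starts that are annotated as such was higher in MESK2 and Fas2 than in the other 3 genes. In MESK2 3 of 4 were annotated as starts of last exons, the exception being the read-through end of isoform 1. In Syt1 it was 1 of 4, in GluClalpha 2 of 5, in Fas2 3 of 4 and in Gprk1 1 of 4. At least 3 annotated last-exon starts were present in 7 of the 71 genes (9.86%), and MESK2 and Fas2 were the only ones of these 7 with 1 TSS. Both cut-offs, 4 last-exon starts and 3 annotated ones, are the values of MESK2 itself, so this small group is a description only. Just below the cut-offs lay further genes with 1 TSS that had 3 last-exon starts, 2 of them annotated.

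**Figure D4:**
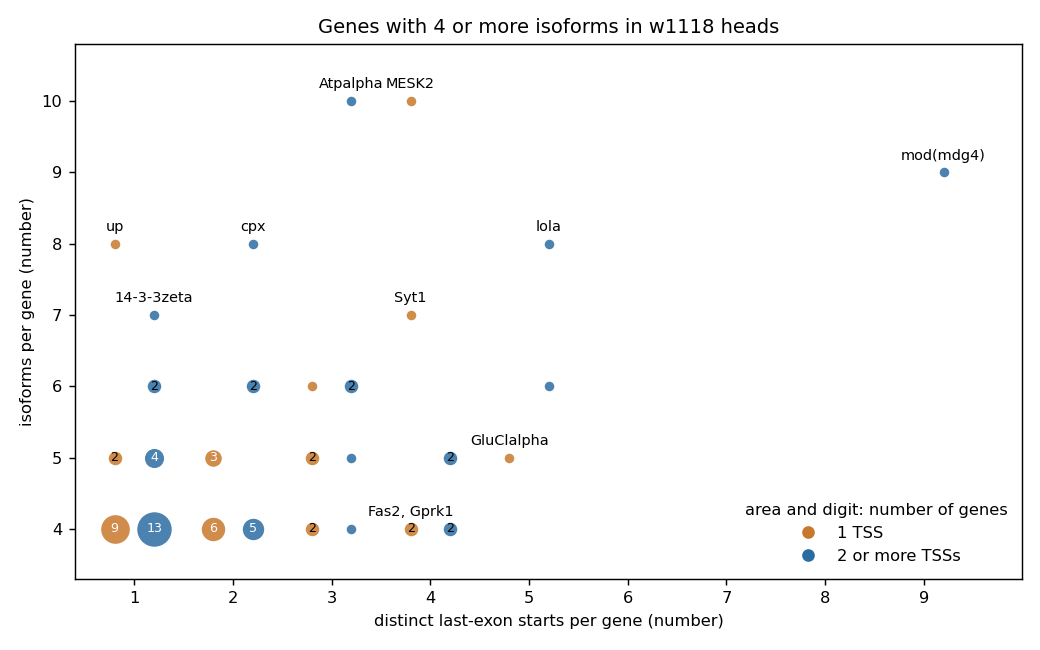
Number of isoforms (vertical axis) against the number of distinct last-exon starts (horizontal axis) for the 71 genes with 4 or more isoforms, with genes of 1 TSS in orange, set slightly to the left, and those of 2 or more in blue, set slightly to the right. Area and digit give the number of genes at a point. MESK2 lies at 10 isoforms and 4 last-exon starts, to the right of Atpalpha.

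Likeness to MESK2 was measured over the 70 other genes with 4 or more isoforms as the sum of absolute differences in the numbers of isoforms, TSSs, PASs and splice chains. Atpalpha was nearest, at 3, with 1 TSS and 2 PASs more. It was followed by up and Syt1 at 7 and by mod(mdg4) and 14-3-3zeta at 8. At this distance 3 genes tied and 1 was left out by order of identifier. Atpalpha and mod(mdg4) have 2 TSSs each, and 14-3-3zeta had 7 isoforms from 2 TSSs with a single last-exon start. The sum is led by isoform number, by which MESK2 was chosen, and it carries no information on function.

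Members of the Ras pathway, in which MESK2 was named, were also looked up in the file. Of 25 genes on the list, 16 had an isoform, next to 28.8% of 13986 protein-coding genes. Of these 16, 3 had 2 or more isoforms, next to 14.8% of all genes in the file. The tyrosine phosphatase gene csw had 3 isoforms, and of the genes for phosphoserine-binding proteins 14-3-3epsilon had 3 and 14-3-3zeta 7, while the other 13 had 1. These included the receptor genes sev and Egfr, the adaptor gene drk, Ras85D, the transcription factor genes pnt and aop and the inhibitor gene sty. No isoform was listed for ksr itself, for the exchange factor gene Sos, or for the kinase cascade of Raf, Dsor1 (MEK) and rl (ERK). The scaffold and adaptor genes cnk, ave and dos and the chaperone gene Cdc37 had none either.

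The tissue of the libraries was checked with marker genes, to be read beside the 28.8% of protein-coding genes that had an isoform. Of 10 photoreceptor markers, 9 had an isoform, ninaE, Arr1 and trp among them. Of 8 neuronal markers, 4 had one, Syt1, cpx, nSyb and ChAT, while elav, brp, Syn and para had none. Isoforms were also present for 5 of 6 glial, 5 of 5 muscle and 4 of 6 fat body markers, and for 1 of 5 matched ovary and testis markers (grk). Which of these cell types express which MESK2 isoform cannot be read from whole heads.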

How the data were processed

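According to the study's methods, libraries were made from 0.5 µg of total RNA of heads with 14 PCR cycles and BluePippin selection above 3 kb, and sequenced on 3 SMRT cells. The authors merged the replicates, aligned consensus reads to dm6 with STARlong, corrected junctions with short reads and collapsed isoforms with FLAIR, keeping 5′ ends supported by the Eukaryotic Promoter Database, at least 2 full-length reads per isoform and up to 5 ends per splice chain. The deposited file gives exon coordinates, with no normalization and no abundance. Neither the depth per library nor whether the study's 3′ end filter was applied to this file could be learned from the methods or labels. A further column of unexplained numbers was left out.

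The annotation was that of Ensembl for BDGP6.54, which has dm6 coordinates and is later than the release the authors used. In it 4035 of the 4059 gene identifiers matched. Of 4702 multi-exon isoforms, 3691 have a left end 1 nt right of an annotated one and 28 have it exactly there, and ends within 1 nt were called equal. The windows of the study were used, with a TSS joining 5′ ends up to 50 nt apart and a PAS joining 3′ ends up to 150 nt apart. Splice chains were sorted by whether their junctions are annotated and in the same order, a step tested on simulated isoforms. Reading frames rest on annotated codons and exon lengths. Gene list symbols were matched by name or by RefSeq synonym. All comparisons are descriptions without a test. The members and lists were chosen with earlier results of these data known. Named genes were MESK2, the other genes with 8 or more isoforms, the 5 genes most like it, its neighbours, and members of the Ras list. Marker genes were named from their own lists, and GluClalpha, Fas2 and Gprk1 were chosen outside this rule after their values were seen. Python 3.11.15 and matplotlib 3.10.9 were used.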

Additional observations from a re-analysis of the deposited data

How the results depend on the processing

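No paired analysis was possible because the 3 libraries form 1 group and the file pools them, and for the same reason no library could be left out. Under windows of 10 or 100 nt for 5′ ends and 50 or 300 nt for 3′ ends, MESK2 kept 1 TSS, 4 PASs and 4 TSS-PAS combinations, and wider tolerances for ends (50 and 150 nt) left 10 annotated 5′ ends and 7 annotated 3′ ends. The number of isoforms was 11 when isoforms without the gene identifier were admitted and 7 without those ending over 150 nt from annotation. The latter choice lowered the number of PASs to 2, since it removes the last exon of isoforms 9 and 10 and the end of isoform 1. An alternative chosen after seeing the data, which included the unspliced isoform, gave 5 PASs. Alternatives that need a genome (poly(A) signals, the longest open reading frame), a second annotation source, or protein sequences (the NDRG family list) were not run. How many reads support each isoform is not known from the file, so an isoform with 2 reads and a common isoform count alike.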
